A study of Mus musculus with 16 samples.

Results

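The 10 genes of MHC class I antigen presentation described here were followed across mouse melanoma tumours. They were chosen by name and not by a measured value, though earlier results of these data were known. They are the heavy chains H2-K1 and H2-D1, their light chain B2m and the peptide transport genes Tap1, Tap2 and Tapbp. The others are the immunoproteasome genes Psmb8 and Psmb9, the trimming enzyme gene Erap1 and the regulator Nlrc5. All 10 are among the 46078 genes of the deposited count table, and all 10 are among the 16101 genes that passed the filter on low counts; each had 490 counts or more in every library.

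The tumours grew from B16F10-GP cells, a line derived from the B16F10 mouse melanoma, implanted in 25% matrigel in the flanks of female C57BL/6 mice aged 6 to 8 weeks. The 16 libraries form 4 groups of 4. The untreated group received no radiation and no QH-II-066; its samples are labelled untreated, while the protocol speaks of vehicle. The 5 Gy group received a single dose of 5 Gy of X-rays on day 10, to the right flank. The QH-II-066 group received 10 mg/kg of QH-II-066 by intraperitoneal injection each day for 7 days from day 10; the series title describes the study as one of GABA-A receptor enhancement. The combined group received both, radiation in the morning and the first drug dose in the evening. The labels give neither the flank of the profiled tumours nor whether replicates are different animals, so p-values measure the spread between these libraries, which may be technical in part.

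Class I molecules show short peptides from a cell's own proteins to CD8 T cells. The proteasome cuts proteins into peptides, the TAP transporter moves these into the endoplasmic reticulum, tapasin (from Tapbp) holds the empty heavy chain at TAP, and ERAP1 trims the peptides to fit. Interferon gamma acts in part through IRF1 to raise most of these genes, and NLRC5 drives class I promoters. B16 melanoma cells are known for low class I on their surface that interferon gamma can raise.

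Across the whole series, total counts per library ran from 6994198 to 40799942, and the correlation of log2 values between libraries of a group from 0.899 to 0.985. The melanocyte marker score, a mean log2 level over 9 genes such as Pmel and Dct, lay between 9.63 and 10.3 in all 16 libraries. It ran from 9.63 to 9.96 after 5 Gy and from 10.07 to 10.3 in untreated, so these groups did not overlap. After QH-II-066 it ran from 9.99 to 10.3 and after both from 9.90 to 10.2. Its part in the class I values was not tested. A skin epithelial marker score was above 0 in 5 libraries, called those with skin transcripts. They were 5 Gy replicates 2 and 4 and combined replicates 2, 3 and 4. Combined replicate 1 lay just under that cutoff, at -0.05, while the remaining libraries lay between -2.85 and -1.60. Combined replicate 1 is the only combined library kept where those with skin transcripts are left out. A gene length slope, the change of a gene's log2 level relative to its mean over libraries per doubling of its length, ran from -0.248 to 0.228 between libraries, so long and short genes did not keep one ratio. Values of these measures stand beside the results they move with.

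Promoter sequences of 8 of the 10 genes were found in the RefSeq tables of build GRCm38.p6, each covering 250 bases before to 50 bases after the transcription start; Tap2 and Nlrc5 had no entry. Those of H2-K1 (chr17:34000284-34000583, minus strand), H2-D1 (chr17:35262844-35263143, plus strand), B2m (chr2:122147437-122147736, plus strand), Tap1 (chr17:34187306-34187605, plus strand) and Erap1 (chr13:74639603-74639902, plus strand) are shown, because the first 4 genes went up and down together between libraries and Erap1 did not. Capitals mark every match, on either strand, to 6 short motifs: GAANNGAAA and GAAANNGAA (2 spellings of the interferon response repeat), TTCNNNGAA (the gamma-activated site), GGGNNTTCC (a kappa B-like site), CCAAT and TGACG. A single longer spelling of the interferon response repeat was searched first; it was replaced by these 2 shorter ones after the H2-K1 window had been read, where the first of them was known to match, so the presence of that match is no result.
H2-K1: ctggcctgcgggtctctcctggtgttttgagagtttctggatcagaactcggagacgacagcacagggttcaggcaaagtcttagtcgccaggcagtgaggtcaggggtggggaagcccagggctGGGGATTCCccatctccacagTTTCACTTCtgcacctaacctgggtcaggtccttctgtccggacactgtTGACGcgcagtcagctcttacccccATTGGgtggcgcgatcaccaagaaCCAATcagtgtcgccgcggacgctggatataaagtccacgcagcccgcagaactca
H2-D1: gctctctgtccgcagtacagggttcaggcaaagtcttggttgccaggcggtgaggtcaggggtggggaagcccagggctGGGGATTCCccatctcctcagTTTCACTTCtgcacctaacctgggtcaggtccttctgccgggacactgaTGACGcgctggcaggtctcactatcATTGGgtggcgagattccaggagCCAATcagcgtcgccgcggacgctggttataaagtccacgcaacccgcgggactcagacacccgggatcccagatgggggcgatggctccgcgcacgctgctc
B2m: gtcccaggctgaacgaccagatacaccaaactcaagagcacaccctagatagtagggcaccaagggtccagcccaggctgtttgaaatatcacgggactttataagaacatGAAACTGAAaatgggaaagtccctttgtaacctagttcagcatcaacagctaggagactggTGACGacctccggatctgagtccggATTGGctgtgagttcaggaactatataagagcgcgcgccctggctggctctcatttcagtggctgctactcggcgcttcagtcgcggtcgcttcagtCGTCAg
Tap1: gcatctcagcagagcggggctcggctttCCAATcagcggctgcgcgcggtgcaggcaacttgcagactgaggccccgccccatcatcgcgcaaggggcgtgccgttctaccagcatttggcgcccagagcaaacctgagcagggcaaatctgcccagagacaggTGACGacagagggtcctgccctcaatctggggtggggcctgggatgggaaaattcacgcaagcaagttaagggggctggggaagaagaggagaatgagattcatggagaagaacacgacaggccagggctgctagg
Erap1: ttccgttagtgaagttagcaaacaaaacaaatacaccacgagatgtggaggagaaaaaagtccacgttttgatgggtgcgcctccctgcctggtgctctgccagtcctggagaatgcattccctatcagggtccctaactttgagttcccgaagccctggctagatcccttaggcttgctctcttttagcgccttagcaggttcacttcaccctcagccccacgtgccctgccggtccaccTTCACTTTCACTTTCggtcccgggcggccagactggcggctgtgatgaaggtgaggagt

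The H2-K1 and H2-D1 windows carried the same order of matches: a kappa B-like site, an interferon response repeat (GAANNGAAA on the reverse strand), TGACG and 2 CCAAT boxes. When aligned, the H2-K1 and H2-D1 windows were identical at 64.8% of 347 columns, and a second RefSeq start of H2-K1 gave 59.3% of 361. Each window has 300 bases, so these columns include gaps. The windows are shifted, with the kappa B-like site starting at -125 in H2-K1 and -171 in H2-D1. The shares are therefore lower than in the stretch that both windows cover. B2m carried the other spelling, GAAANNGAA, at positions -139 to -131 from its start, with TGACG and CCAAT closer to the start and a second TGACG after it. Erap1 carried GAAANNGAA as 2 overlapping reverse-strand matches between -9 and 6 and none of the other motifs. Psmb8, not printed, held the only gamma-activated site, at -97 to -89. Of 32851 promoter windows of this length in the RefSeq table, 7.52% held GAANNGAAA, 8.56% GAAANNGAA, 8.30% TTCNNNGAA, 5.82% GGGNNTTCC, 37.4% CCAAT and 20.8% TGACG. A match describes the letters and is not a bound site.

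Tap1 and Psmb9 point away from each other: their RefSeq starts lie 226 bases apart and 275 bases of the Tap1 window printed above are also the Psmb9 window. In the count table's gene models, on mm10, 7 of the 10 genes lie on chromosome 17, in the MHC. Psmb9 spans chr17:34181988-34187764, Tap1 chr17:34187553-34197225, Psmb8 chr17:34197721-34201454 and Tap2 chr17:34203527-34216321, side by side. Tapbp (chr17:33915899-33929288), H2-K1 (chr17:33996017-34000333) and H2-D1 (chr17:35262730-35267499) flank them. B2m (chr2:122147686-122153083), Erap1 (chr13:74639872-74691875) and Nlrc5 (chr8:94472763-94527272) lie elsewhere. Counting used no strand, overlap or multi-mapping option, so reads from exon bases shared with another gene may be counted for neither. Of Tapbp exon bases, 22% overlap Gm19412 or Zbtb22, and of Tap2 exon bases 18.5% overlap Gm15821 or Gm20496. Of Psmb8 bases, 6.80% overlap Gm20496, and Tap1 and Psmb9 share 212 exon bases. H2-K1 and H2-D1 share 9.63% and 12.8% of their 50-base transcript words with other genes, among them other class I heavy chains such as H2-Q10 and H2-Q1, so their counts are uncertain to that extent; Erap1 shares 10.7% with Cast and B2m none.

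Per transcript length, the light chain was by far the most abundant message of the pathway. The mean level of B2m over the 16 libraries was 8219 TPM (counts scaled by exon length and library), with a median rank of 5.5 among the 16101 genes tested. H2-D1 followed at 1588 TPM (rank 88.5) and H2-K1 at 1413 TPM (rank 106); in the untreated group they stood at 1515 ± 279 and 1373 ± 309 TPM (SD, n = 4), a difference smaller than either spread. The peptide supply genes were lower, with Psmb8 at 297 TPM, Tapbp at 241, Psmb9 at 161, Tap1 at 113 and Tap2 at 88.3. Erap1 (64.1 TPM) and Nlrc5 (32.4 TPM, rank 4568.5) came last. In the untreated group Psmb8 (275 ± 121 TPM, SD, n = 4), Tapbp (234 ± 86.6), Psmb9 (154 ± 73.8), Tap1 (105 ± 19.2), Tap2 (82.2 ± 39.5) and Erap1 (66.8 ± 15.6) each differed from the next in this order by less than the larger SD, while Nlrc5 (34.4 ± 6.68) lay below Erap1 by more than either SD. TPM used the full exon length, so genes with shared exon bases, such as Tapbp and Tap2, may be understated. In bulk tumour RNA, fewer cells of a type and less RNA per cell cannot be told apart, and these levels join melanoma and host cells.

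**Figure D1:**
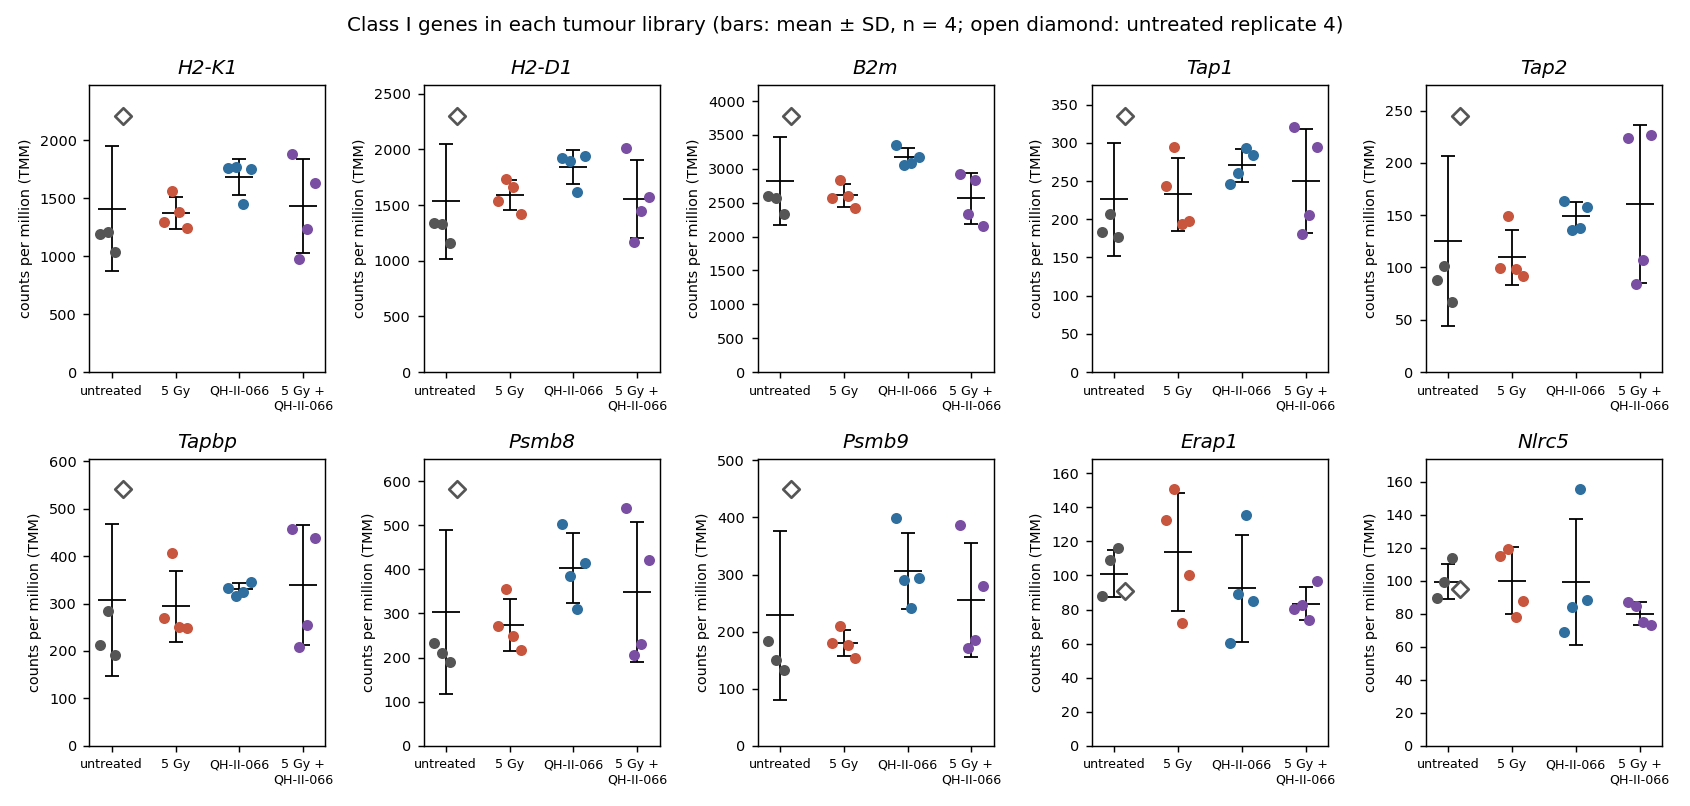
Level of each of the 10 genes in CPM (counts scaled to library size; vertical axes from 0) in the 4 libraries of each group; points are libraries, bars the mean ± SD (n = 4), and the open diamond is untreated replicate 4. For 8 genes the diamond is the highest of all 16 libraries, from 245 for Tap2 to 3783 for B2m; for Erap1 and Nlrc5 it lies within the other libraries.

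Levels below are in CPM after TMM scaling, which corrects for library size and composition. H2-K1, which encodes the heavy chain of H-2Kb, stood in untreated replicates 1 to 4 at 1193, 1207, 1032 and 2212 CPM. After 5 Gy its CPM was 1299, 1564.5, 1382 and 1243, after QH-II-066 1762, 1767, 1452 and 1749.7, and after both 1883, 971, 1236 and 1628. All 4 groups overlapped: the untreated group held the highest library and the combined group the lowest. H2-D1, encoding H-2Db, ran from 1163 to 2302 CPM in untreated, 1422 to 1734 after 5 Gy, 1618 to 1943 after QH-II-066 and 1172 to 2014 after both. Untreated replicate 4 was the highest library for both heavy chains, and the lowest was combined replicate 2 for H2-K1 and untreated replicate 3 for H2-D1.

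The light chain gene B2m, whose product every class I heavy chain needs to fold, stood at 2597, 2569, 2329 and 3783 CPM in the untreated libraries. It was 2568, 2839.8, 2601 and 2423 CPM after 5 Gy, 3358, 3056, 3081 and 3174 after QH-II-066, and 2921, 2338, 2838 and 2154 after both. The QH-II-066 libraries lay between untreated replicate 4 and the other 3 untreated libraries, and all 4 of them lay above all 4 combined libraries. Relative to the other genes, B2m varied least, by 1.76-fold between its lowest and highest library.

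Tap2, which encodes one subunit of the peptide transporter, varied most. It stood at 88.3, 101, 67.1 and 245 CPM in the untreated libraries, 99.5, 149, 98.2 and 91.9 after 5 Gy, 164, 136, 138 and 158 after QH-II-066, and 224, 84.1, 107 and 227 after both. Its highest library was 3.65-fold above its lowest, both of them untreated, and the combined group fell into 2 high and 2 low libraries. The partner subunit gene Tap1 spanned a narrower range, with 184, 207, 177 and 336 CPM untreated, 244, 295, 194 and 198 after 5 Gy, 246, 260.5, 293 and 284 after QH-II-066, and 321, 180.1, 206 and 294 after both. Tapbp, for tapasin, ran from 192 to 541 CPM in untreated, 249 to 406 after 5 Gy, 315 to 346 after QH-II-066 and 209 to 457 after both; the QH-II-066 libraries were the closest together, with an SD of 13.2 CPM.

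Psmb8 and Psmb9 encode catalytic subunits that replace constitutive ones to form the immunoproteasome. Psmb9 stood at 183, 149, 133 and 449 CPM in the untreated libraries, 179, 209, 176 and 153 after 5 Gy, 399, 289.6, 242 and 294 after QH-II-066, and 386, 170.5, 185 and 279.6 after both. Every QH-II-066 library lay above 3 of the 4 untreated ones and below the fourth, untreated replicate 4. Psmb8 was at 233, 211, 189.9 and 581 CPM untreated, 272, 355, 249.98 and 218 after 5 Gy, 502, 385, 309 and 414 after QH-II-066, and 538, 206, 230.2 and 422 after both, with 1 of the 5 Gy libraries inside the QH-II-066 range.

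Erap1 and Nlrc5 did not share this order. Erap1 was at 88.2, 109, 116 and 91.1 CPM in the untreated libraries, 133, 150.5, 72.0 and 101 after 5 Gy, 60.5, 89.0, 136 and 84.8 after QH-II-066, and 80.3, 82.5, 73.8 and 96.9 after both. Nlrc5 was at 89.7, 99.0, 114 and 95 CPM untreated, 115, 119, 77.9 and 87.8 after 5 Gy, 69.2, 84.2, 155 and 88.6 after QH-II-066, and 87.3, 84.4, 75.1 and 72.9 after both. The 4 combined libraries were all below the 4 untreated ones for Nlrc5, and untreated replicate 4, highest for the other 8 genes, was in the middle for both.

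The comparison of the 5 Gy group with the untreated group asks whether class I transcripts differ at the time of collection after a single dose to the right flank. None of the 10 genes passed the test (edgeR's quasi-likelihood test, Benjamini-Hochberg adjusted over all genes tested, threshold 0.05), against 1.26% of all genes; 202 were higher and 1 lower. The 4 fitted differences above 0 and 6 below 0 had a median of -0.05 on the log2 scale, beside -0.08 for all genes. Erap1 had the highest fitted difference, 0.17 ± 0.23 (log2 ± SE, edgeR adjusted p = 0.762), and Psmb9 the lowest, -0.35 ± 0.34 (edgeR adjusted p = 0.683). As a ratio, H2-K1 after 5 Gy was 0.972 of untreated with a 95% interval from 0.692 to 1.37, and B2m was 0.925 with an interval from 0.738 to 1.16. For Tap2 the interval was wider, from 0.505 to 1.51. None of the 10 reached an unadjusted p under 0.05, beside 15.1% of all genes, and DESeq2 called 0 of the 10 in this and in each of the other 5 comparisons. The median turned to 0.28, with 9 of 10 genes above 0, without untreated replicate 4, and to 0.10 with the gene length slope as a covariate.

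QH-II-066 alone against untreated asks what the drug does without radiation. Again 0 of the 10 genes passed the edgeR test, as did 0.0% of all genes, and 0 reached an unadjusted p under 0.05, beside 8.17% of all genes. The fitted differences were above 0 for 8 genes, with a median of 0.25 for the 10 beside 0.01 for all genes. Psmb9 (0.42 ± 0.34, edgeR adjusted p = 0.593) and Psmb8 (0.41 ± 0.36, edgeR adjusted p = 0.613) had the largest values. H2-D1 stood at 0.27 ± 0.20, Tap1 at 0.26 ± 0.22, H2-K1 at 0.25 ± 0.23, Tap2 at 0.25 ± 0.37 and B2m at 0.17 ± 0.15, with edgeR adjusted p from 0.575 to 0.764. The 95% interval of the H2-K1 ratio ran from 0.848 to 1.68, and that of Psmb9 from 0.808 to 2.22. Erap1 stood at -0.13 ± 0.23 and Nlrc5 at -0.00 ± 0.21, or 0.01 with RLE scaling. The median was 0.03 with the score of 4 haematopoietic markers as a covariate, with 6 genes above 0 and 4 below, 0.07 with the gene length slope, and 0.11 without untreated replicate 3.

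Untreated replicate 4 stood at 1.51-fold (B2m) to 2.89-fold (Psmb9) the mean of the other 3 untreated libraries in 8 of the 10 genes, with 1.93-fold for H2-K1 and 2.87-fold for Tap2, but at 0.871-fold for Erap1 and 0.941-fold for Nlrc5. In those 8 genes all 4 QH-II-066 libraries lay above untreated replicates 1 to 3 in CPM, and none lay above untreated replicate 4. In TPM that order held for Tap2, Psmb8 and Psmb9, but not for H2-K1, H2-D1, B2m, Tap1 or Tapbp. For B2m, untreated replicate 4 was at 9437 TPM, QH-II-066 replicate 3 at 10559 and QH-II-066 replicate 1 at 7215. Fitted without untreated replicate 4, the QH-II-066 difference was 0.98 ± 0.26 for Psmb9, 0.93 ± 0.29 for Psmb8, 0.80 ± 0.31 for Tap2 and 0.56 ± 0.19 for H2-K1. The median of the 10 genes was 0.53. Unadjusted p was then under 0.05 for 7 of the 10 genes, in a fit where this held for 24.8% of all genes, and edgeR adjusted p for the 10 was 0.163 or more, so that none passed. The combined group against untreated had, without that library, 4 of 10 genes (Tap2, Tapbp, Psmb8 and Psmb9) at an unadjusted p under 0.05 beside 31.5% of all genes, a smallest edgeR adjusted p of 0.0972 for Tap2 and a median of 0.36. The 8 genes vary together, so these counts cannot be set against the shares of all genes. Untreated replicate 4 was singled out because it was highest in CPM for those 8 genes. Leaving it out therefore raises their differences from untreated by construction.

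The same library stood apart in other measures. Its gene length slope was -0.178, against 0.0817, 0.139 and 0.228 in untreated replicates 1 to 3, and its score of the 4 haematopoietic markers (Ptprc, Cd53, Coro1a and Laptm5) was 5.93, against 4.76, 5.42 and 4.52. Irf1, the gene of a transcription factor of the interferon response, stood at 436 CPM in it and at 200.3, 243 and 179 in the other 3. The part of these measures in the class I values was not tested.

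**Figure D2:**
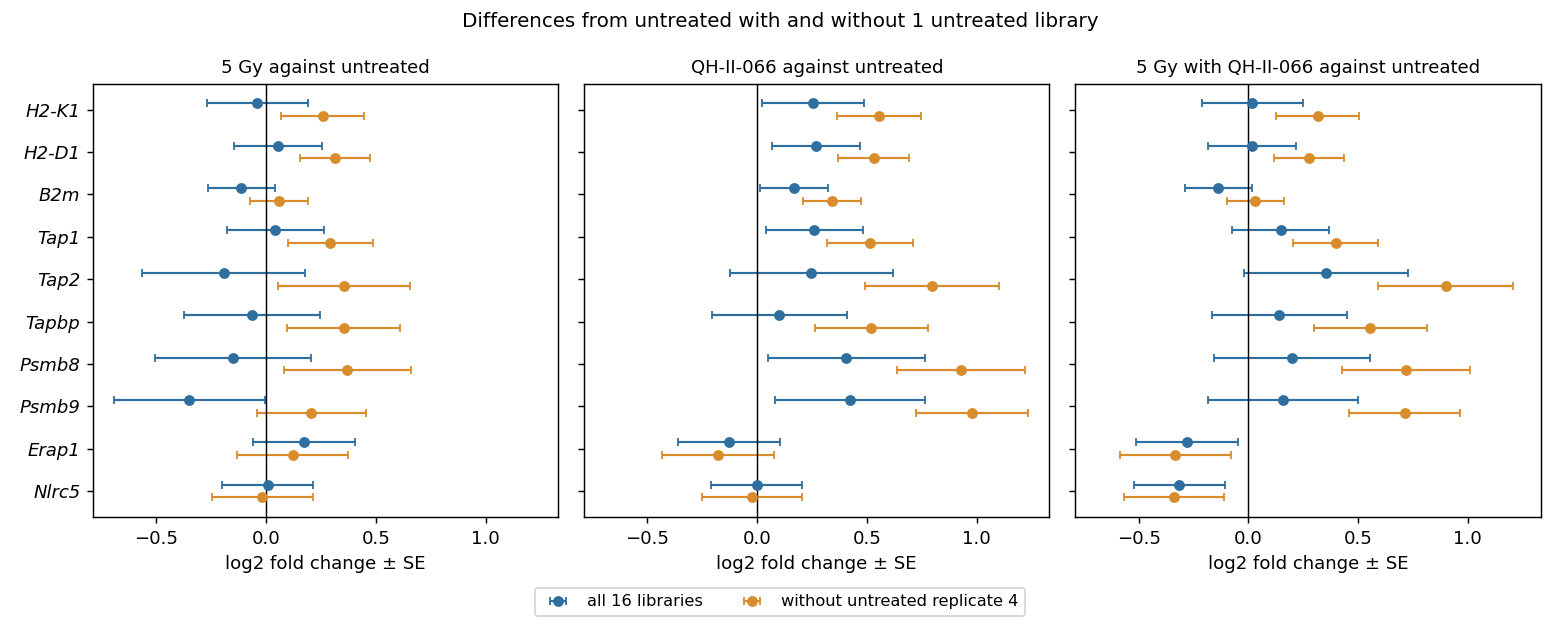
Fitted log2 fold change ± SE (edgeR) of each gene against untreated, with all 16 libraries and without untreated replicate 4, in 3 panels for the 3 treated groups. Without that library the QH-II-066 values of 8 genes lie further to the right, Psmb9 at 0.98 in place of 0.42, while those of Erap1 and Nlrc5 stay close to where they were. That library was singled out from the levels of these same genes.

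Radiation with QH-II-066 against untreated gave 0 of 10 genes called by edgeR, beside 0.0% of all genes, and 0 at an unadjusted p under 0.05, beside 16.2% of all genes. The median fitted difference of the 10 was 0.08, beside -0.00 for all genes. Tap2 was highest at 0.35 ± 0.37 (edgeR adjusted p = 0.593). Nlrc5 was lowest at -0.31 ± 0.21 (edgeR adjusted p = 0.397). In CPM, it was the only one of the 10 whose 4 combined libraries all lay below the 4 untreated ones. The same held for 1.69% of all genes. In TPM these groups overlapped for Nlrc5, at 28.9 in combined replicate 2 and 26.7 in untreated replicate 4. H2-K1 and H2-D1 stood at 0.02 ± 0.23 and 0.02 ± 0.20, and their ratios had 95% intervals from 0.721 to 1.43 and from 0.752 to 1.36. The median turned to -0.13, with 1 of 10 genes above 0, without combined replicate 1, and to -0.03, -0.03 and -0.05 without untreated replicates 1, 2 and 3. It was also below 0 with the haematopoietic score (-0.13) or the gene length slope (-0.16) as a covariate.

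Adding the drug to radiation, the combined group against 5 Gy, gave fitted values above 0 for the immunoproteasome genes and Tap2 and below 0 for Erap1 and Nlrc5. None passed the test: 0 of 10 were called by edgeR beside 0.0% of all genes, and 0 had an unadjusted p under 0.05, beside 19.5% of all genes. Tap2 stood at 0.55 ± 0.37 (edgeR adjusted p = 0.387), Psmb9 at 0.51 ± 0.34 (0.381 by the same test), and Erap1 at -0.45 ± 0.23 (0.281). The heavy chains and light chain were close to 0, with H2-K1 at 0.06 ± 0.23, H2-D1 at -0.04 ± 0.20 and B2m at -0.03 ± 0.15. The interval of the B2m ratio, 0.784 to 1.23, was the narrowest of the 10. The 5 libraries with skin transcripts were all in these 2 groups. Leaving them out keeps 1 combined library, replicate 1, which lay just under the skin cutoff and is assumed to vary like the other groups. The median of the 10 was then 0.53, in place of 0.08, and it was 0.47 against untreated. With the gene length slope as a covariate the median against 5 Gy was -0.19, and without combined replicate 1 it was -0.07; none of the 10 was called in these fits.

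Adding radiation to the drug, the combined group against QH-II-066, gave values below 0 for 8 of 10 genes with a median of -0.22, beside -0.02 for all genes; edgeR called 0 of 10, beside 0.0% of all genes, and 0 had an unadjusted p under 0.05, beside 3.65% of all genes. B2m was at -0.31 ± 0.15 (edgeR adjusted p = 1, unadjusted 0.0641), a ratio of 0.809 with a 95% interval from 0.646 to 1.01, and its 4 combined libraries all lay below the 4 QH-II-066 ones. In CPM, that was so for 0.621% of all genes. In TPM the 2 groups overlapped, with B2m at 8541 in combined replicate 3 and at 7215 in QH-II-066 replicate 1. By DESeq2, 1 of the 10 had an unadjusted p under 0.05 in this comparison, beside 4.34% of all genes, and 0 were called. Nlrc5 was at -0.31 ± 0.21, H2-D1 at -0.25 ± 0.20 and H2-K1 at -0.23 ± 0.23. The median turned to 0.20, with 7 of 10 genes above 0, without the libraries that hold skin transcripts, and was -0.37 without combined replicate 1.

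The interaction asks whether the drug's effect differs with and without radiation. It was called for 0 of 10 genes, beside 0.0% of all genes by edgeR, and 0 of the 10 had an unadjusted p under 0.05, beside 6.96% of all genes. The median of the 10 was -0.17, beside 0.03 for all genes, and its values ran from -0.32 ± 0.33 for Erap1 to 0.30 ± 0.53 for Tap2. Without untreated replicate 4 all 10 values were below 0, with a median of -0.39 and an edgeR adjusted p of 0.501 or more. The median was 0.26, with 8 genes above 0, without the libraries that hold skin transcripts, and 0.21, with 6 above 0, with the haematopoietic score as a covariate. Of the 60 fitted differences of the 10 genes in the 6 comparisons, 45 changed sign in at least 1 alternative fit, so their directions are given as values only.

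**Figure D3:**
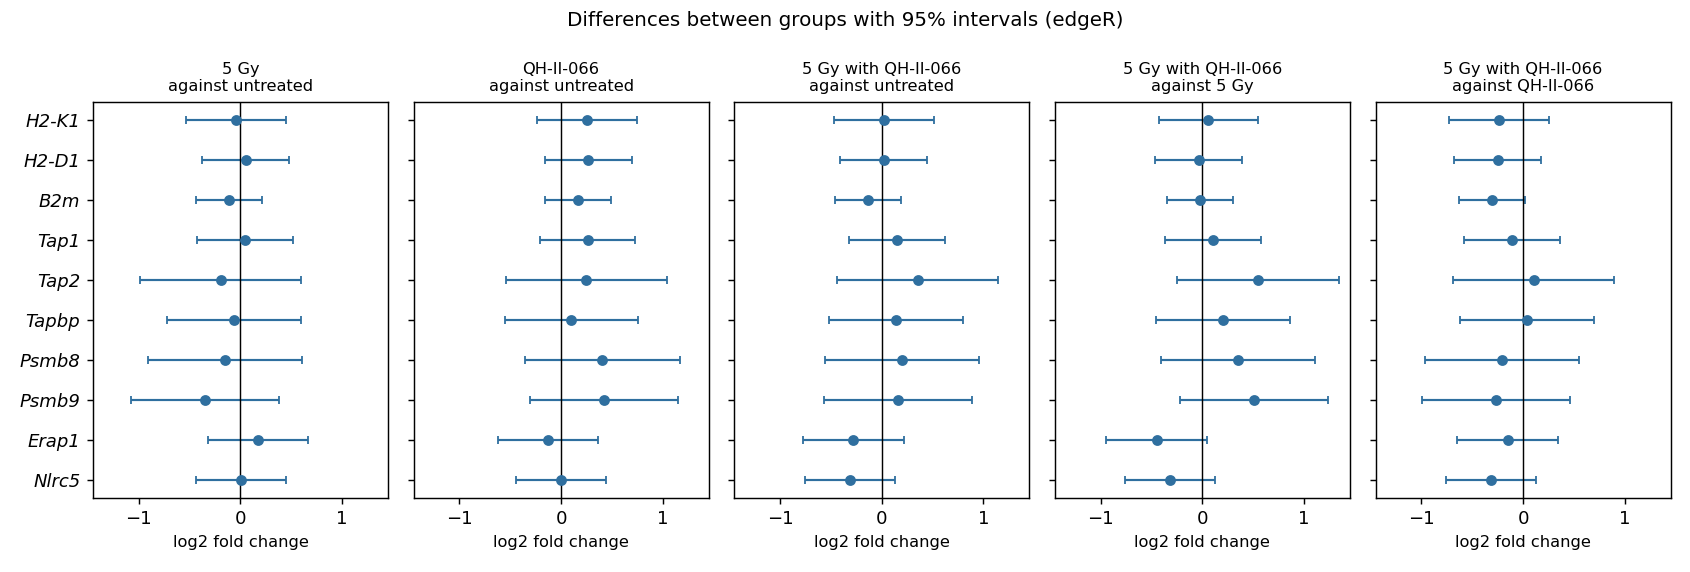
Fitted log2 fold change of each of the 10 genes (points) with its 95% interval (bars; edgeR, 4 libraries per group) in the 5 comparisons between groups. Every interval crosses 0; those of Tap2, Psmb8 and Psmb9 are the widest and that of B2m the narrowest.

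Between libraries, 8 of the 10 genes varied together. Over the 16 libraries, the 28 pairs among H2-K1, H2-D1, B2m, Tap1, Tap2, Tapbp, Psmb8 and Psmb9 had Pearson correlations of log2 CPM from 0.55 to 0.97, with a median of 0.89 and Spearman values from 0.59 to 0.98. This split into 8 and 2 genes was made from the values themselves. The closest pairs were H2-K1 with H2-D1 (r = 0.97), Psmb8 with Psmb9 (r = 0.97) and Tap2 with Tapbp (r = 0.97), each with a permutation p of 1e-05, the smallest that 100000 permutations can give, and 4.57e-05 after adjustment over the 105 relations computed. B2m was the least tied, with r from 0.55 with Tap2 to 0.81 with H2-D1; the largest adjusted permutation p of the 28 pairs was 0.0441. After the group means were subtracted, the 28 correlations ran from 0.60 to 0.99, so the shared level varied within groups. Leaving out the 2 libraries farthest from the median of each pair's first gene gave 0.59 to 0.97, and the 11 libraries without skin transcripts gave 0.81 to 0.99.

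Erap1 and Nlrc5 varied with each other. Their correlation was r = 0.87 (Spearman 0.82, adjusted permutation p = 7.5e-05), 0.88 after subtraction of group means and 0.84 without the 2 farthest libraries. Their 16 correlations with the other 8 genes ran from -0.37 to 0.17, with a smallest adjusted permutation p of 0.241. Nlrc5, known for driving class I promoters, gave r = -0.15 with H2-K1 and r = 0.06 with B2m in these tumours.

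**Figure D4:**
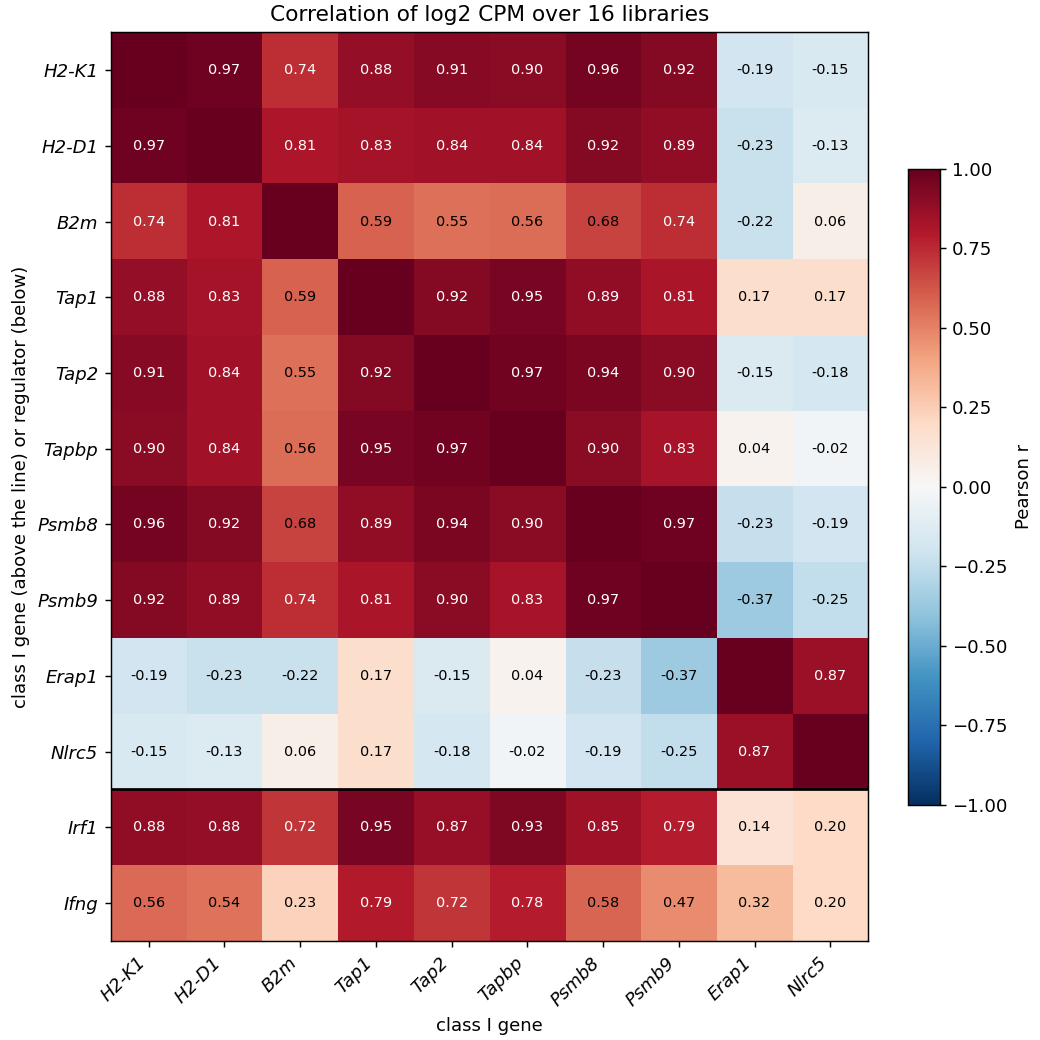
Pearson correlation of log2 CPM over the 16 libraries between the 10 class I genes (rows above the line and columns) and of Irf1 and Ifng with each (rows below the line). The block of 8 genes has values from 0.55 to 0.97, Erap1 and Nlrc5 correlate at 0.87 with each other, and Irf1 lies at 0.72 to 0.95 with the 8.

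Among the genes most like the mean standardised level of the 10, out of 11853 candidates outside them, were Irf1 (r = 0.97), the class Ib gene H2-T22 (0.97), Ifi47 (0.97), H2-DMa (0.97), Apol9a (0.97), Apol9b (0.96), Batf2 (0.96), H2-T23 (0.95) and the GTPase gene Igtp (0.95), each over 16 libraries. These values come from the same libraries as the class I levels and share their depth and composition. Reads that match both of the similar pair Apol9a and Apol9b may be counted for neither. Irf1 is one of the genes most like the 10, and the 8 genes were split off from the same values. The permutation p that follows is therefore no independent support. Irf1 correlated at 0.72 (B2m) to 0.95 (Tap1) with the 8 genes, adjusted permutation p of 0.00365 or less, and at 0.14 and 0.20 with Erap1 and Nlrc5. Its level was 200.3, 243, 179 and 436 CPM in the untreated libraries, 255, 377, 243 and 220.5 after 5 Gy, 282, 290.1, 340.3 and 322 after QH-II-066, and 355, 203, 228 and 283 after both. The untreated group thus held both the lowest and the highest library of Irf1 in the series, as it did for 6 of the 8 class I genes. Ifng, itself at 0.512 to 4.17 CPM, correlated at 0.23 (B2m) to 0.79 (Tap1).

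**Figure D5:**
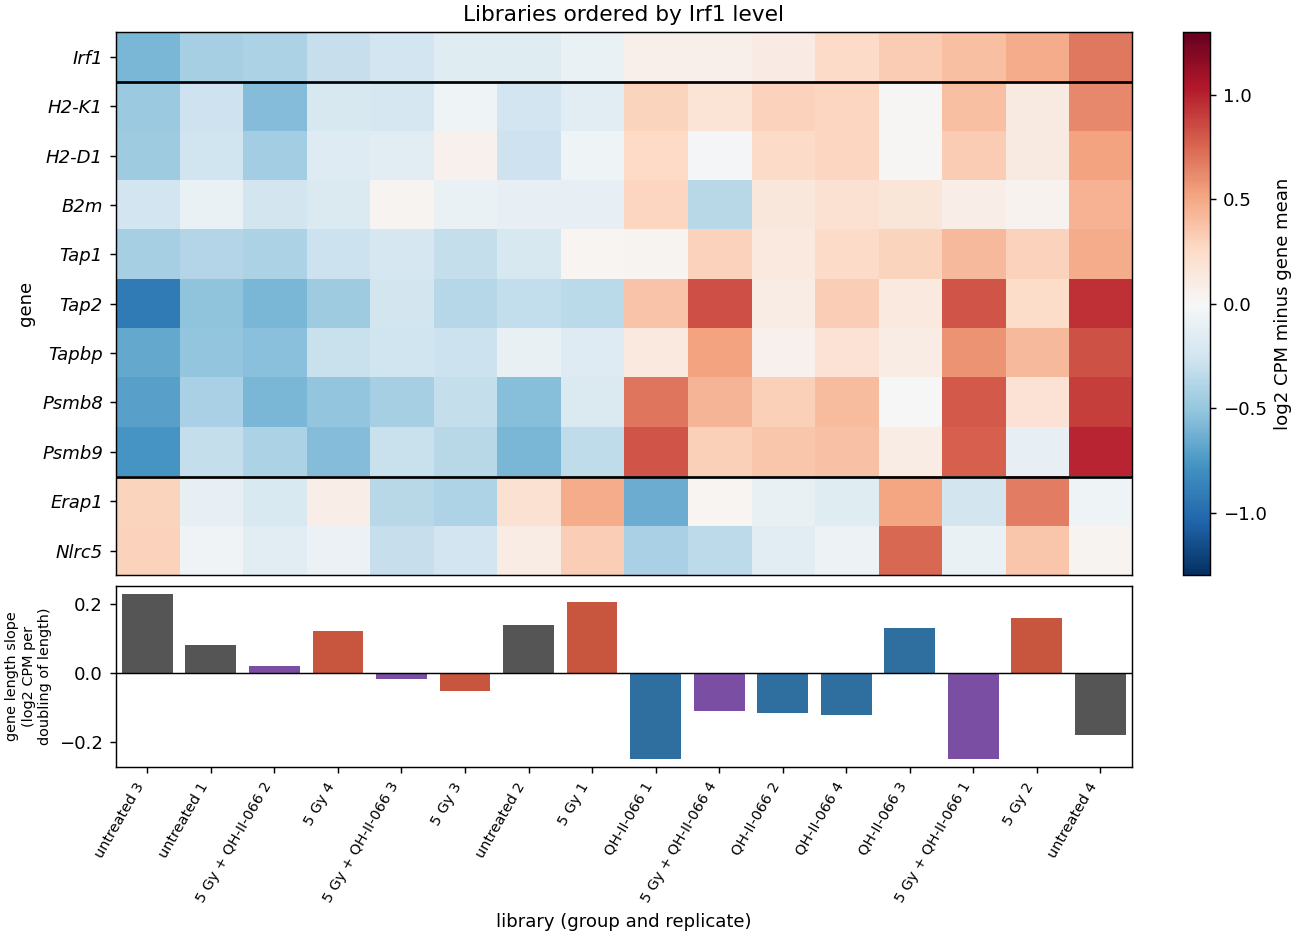
Log2 CPM minus each gene's mean (colour) for Irf1 and the 10 class I genes in the 16 libraries ordered by Irf1 level, with the gene length slope of each library below (bars coloured by group: grey untreated, red 5 Gy, blue QH-II-066, purple both). The 8 genes are higher toward the right, with untreated replicate 3 at the left end and untreated replicate 4 at the right, while Erap1 and Nlrc5 show no such order. The order restates the correlations of Irf1 with these genes in the same libraries.

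Measures of cell content and RNA moved with these genes too. The haematopoietic score correlated at 0.84 with Tap1, 0.80 with Tapbp and 0.31 with B2m, with 6 of the 8 at an adjusted permutation p under 0.05; by group it ranged from 4.52 to 5.93 in untreated, 5.49 to 6.59 after 5 Gy, 5.16 to 5.97 after QH-II-066 and 4.87 to 6.14 after both. The gene length slope correlated at -0.85 with Psmb9, -0.78 with Psmb8, -0.73 with H2-K1 and -0.49 with Tap1, and at 0.76 with Erap1 and 0.67 with Nlrc5. The skeletal muscle score had correlations from -0.26 to 0.39 with the 10 genes and an adjusted permutation p of 0.21 or more. With the haematopoietic score as a covariate 0 of 10 genes were called in any comparison, and all 10 values were below 0 after 5 Gy, with a median of -0.36 and 5 of 10 at an unadjusted p under 0.05, beside 7.81% of all genes. In the same fit, 4 of 10 were at an unadjusted p under 0.05 for both against 5 Gy, beside 26.9% of all genes, and 2 of 10 for the interaction, beside 4.13%. The score itself differed between groups, with a mean of 5.91 after 5 Gy and 5.16 in untreated. Because 8 of the 10 genes vary together, these counts cannot be set against the shares of all genes. With the length slope as a covariate 0 of 10 were called in any comparison. The part of either measure in the correlations among the class I genes was not tested.

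Among 27 other genes of the class I pathway, 24 were tested, and edgeR called none in any comparison. After 5 Gy, 11 had values above 0 and 13 below, with a median of -0.08, beside -0.08 for all genes; after QH-II-066, 19 were above 0 and 5 below, with a median of 0.26 beside 0.01 for all genes. At an unadjusted p under 0.05 there were 4, 3, 2, 4, 2 and 3 of the 24 in the 6 comparisons in the order given above, where the shares of all genes were 15.1%, 8.17%, 16.2%, 19.5%, 3.65% and 6.96%. Fcgrt, which encodes the neonatal Fc receptor, a class I-like protein, had the smallest edgeR adjusted p, 0.0655 after 5 Gy. Its level was 29.6, 29.6, 20.5 and 40.7 CPM in untreated libraries and 56.9, 79.0, 67.4 and 44.5 after 5 Gy, and the groups did not overlap, as for 5.97% of all genes in that direction. DESeq2 called Fcgrt (log2 1.06 ± 0.29, adjusted p = 0.00669) together with 7.6% of all genes.

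The third immunoproteasome subunit gene, Psmb10, was at 189, 212, 169 and 691 CPM in untreated libraries and at 680.3, 220.2, 236 and 619 in the combined group, the same 2 high and 2 low combined libraries as for Tap2. Its value in the combined group against 5 Gy was 0.90 ± 0.45 (edgeR adjusted p = 0.273). The constitutive subunit genes Psmb5 and Psmb6, which the immunoproteasome subunits replace, stood at 0.89 ± 0.30 and 0.76 ± 0.30 in the same comparison (edgeR adjusted p 0.209 and 0.217), so constitutive and inducible subunits had values above 0 alike.

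Of 22 regulators of class I and of interferon gamma signalling, all were tested and edgeR called 0 in each comparison, with 3, 2, 5, 9, 0 and 2 at an unadjusted p under 0.05, beside the same shares of all genes. Rfxank, singled out because DESeq2 called it, encodes a subunit of the RFX complex, through which NLRC5 is held at class I promoters. It stood at 14.1, 16, 14.1 and 15.4 CPM in untreated libraries and 10.6, 11.8, 12.6 and 10.4 after 5 Gy, so all 4 of the 5 Gy libraries were lower, as for 3.13% of all genes. After both treatments Rfxank was at 16.3, 14.5, 17.2 and 15.3 CPM, all above the 5 Gy libraries, as for 4.45% of all genes. Its value was -0.39 ± 0.12 after 5 Gy (edgeR adjusted p = 0.114; DESeq2 adjusted p = 0.0403) and 0.48 ± 0.13 for both against 5 Gy (edgeR adjusted p = 0.209; DESeq2 adjusted p = 0.0351, where DESeq2 called 0.764% of all genes).

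The 10 genes induced by interferon gamma, among them the chemokine gene Cxcl9 and the GTPase genes Gbp2 and Iigp1, were all tested and none was called by edgeR or DESeq2. The only unadjusted p under 0.05 was that of Ido1 in the combined group against QH-II-066, where 3.65% of all genes had one. In that comparison 9 of the 10 had values below 0, with a median of -0.25 beside -0.02 for all genes, and Cxcl9 stood at -0.34 ± 0.27 (edgeR adjusted p = 1). QH-II-066 against untreated gave 9 of 10 values above 0 and a median of 0.11, beside 0.01 for all genes. After 5 Gy, 7 of 10 were above 0, with a median of 0.10. The combined group against untreated had 9 of 10 below 0 and a median of -0.14, where the 10 class I genes had 0.08. Against 5 Gy it had 8 of 10 below 0 and a median of -0.31, where the 10 class I genes again had 0.08. The interaction had 9 of 10 below 0, with a median of -0.41.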

How the data were processed

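RNA of 16 tumours was prepared by transcriptome capture, per the labels' protocols. The submitters' processing notes name STAR 2.4.1a and mm10. Read pairs were counted per gene with featureCounts 1.6.0, per the file headers, without strand, overlap or multi-mapping options. The deposited values are raw counts, with each gene's exon length beside them; 45143 of 46078 genes matched a symbol. From these counts, edgeR 4.0.16 (R 4.3.3) fitted 4 group means with TMM scaling, filterByExpr and robust quasi-likelihood tests (adjusted p threshold 0.05). SE is the size of the log2 difference over the square root of F. Log2 CPM used a prior count of 2; TPM was computed from counts and exon lengths. Correlations used 100000 permutations. The fit was tested on simulated data. Alternatives were RLE scaling, DESeq2 1.42.0, no filter, a replicate block, a haematopoietic or length covariate, and leaving out libraries. All 10 genes are named; other genes of 3 lists were named where a tool called them or a result turned on them, as were genes among the 10 most similar by correlation. Results for some marker and regulator genes are not reported here. The genes and lists were chosen with earlier results of these data known.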

Additional observations from a re-analysis of the deposited data

Results flagged for a closer look

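In 4 of 40 groups (10 genes in 4 groups of 4 libraries), 1 library lay far from the other 3 by Dixon's gap test on log2 CPM. For independent groups chance gives about 1 in 20. These groups are not independent, because 8 of the genes vary together, so the count cannot be set against that rate. QH-II-066 replicate 3 was low for H2-K1, at 1452 CPM with the other 3 libraries from 1749.7 to 1767, and low for H2-D1, at 1618 CPM with the others from 1896 to 1943. That library had the highest Nlrc5 level of all 16, 155 CPM, and a gene length slope of 0.131, against -0.247 to -0.115 in the other 3 QH-II-066 libraries. Replicate 2 of the 5 Gy group was high for Tap2, at 149 CPM with the others from 91.9 to 99.5, and high for Tapbp, at 406 CPM with the others from 249 to 270.3. That library had skin transcripts and the highest haematopoietic score of the series, 6.59. On the CPM scale, tried after seeing the data, 8 of 40 groups passed the same test: these 4 and untreated replicate 4 for H2-K1 (2212 CPM), H2-D1 (2302 CPM), Psmb8 (581 CPM) and Psmb9 (449 CPM), which did not pass on the log2 scale.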

How the results depend on the processing

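None of the 10 genes was called in any of the 6 comparisons, in the edgeR fit or in 23 alternatives; the smallest adjusted p was 0.0972, for Tap2 after both treatments without untreated replicate 4. The sign of the uncalled values was not stable: 142 of 1380 fitted differences had another sign than in the fit to all libraries, and 45 of the 60 differences changed sign in at least 1 alternative. Over all genes, edgeR called 203 after 5 Gy, DESeq2 1224, the fit leaving out skin-bearing libraries 22 and that with the haematopoietic score 5. Leaving out 1 library gave 0 genes (without 5 Gy replicate 2, or untreated replicate 1, 2 or 3) to 739 (without 5 Gy replicate 3). In the comparisons where edgeR called 0, DESeq2 called 16 after QH-II-066, 206 after both, 123 for both against 5 Gy, 48 for both against QH-II-066 and 59 for the interaction. The cause of these differences was not tested. The replicate block gave 154 genes called after 5 Gy and 0 of the 10. Libraries of 1 number had correlations of deviations from -0.43 to 0.48 (24 pairs, median 0.10). Those of different numbers had -0.67 to 0.69 (72 pairs, median -0.04), and 4 of 16 libraries were closest to their own number. No pairing by number was seen, and these values cannot show that there is none. The gene length slope was added as a covariate after seeing the data. The 10 genes had 490 counts or more in every library; counting error was not compared with the spread between libraries. With the gene length slope as a covariate, the values with another sign were 0.11 (H2-K1), 0.10 (Tap2), 0.13 (Tapbp), 0.16 (Psmb8) and -0.07 (Nlrc5) after 5 Gy, -0.09 (Tapbp), 0.09 (Erap1) and 0.17 (Nlrc5) after QH-II-066, -0.25 (H2-K1), -0.22 (H2-D1), -0.12 (Tapbp), -0.20 (Psmb8) and -0.22 (Psmb9) after both. They were -0.35 (H2-K1), -0.12 (Tap1), -0.09 (Tap2), -0.25 (Tapbp), -0.36 (Psmb8) and -0.19 (Psmb9) for both against 5 Gy, -0.03 (Tapbp) for both against QH-II-066, -0.10 (Tap2), -0.16 (Tapbp) and -0.29 (Psmb9) for the interaction in the same fit. With the haematopoietic score as a covariate, the values with another sign were -0.19 (H2-D1), -0.37 (Tap1), -0.07 (Erap1) and -0.12 (Nlrc5) after 5 Gy, -0.03 (Tap2) and -0.18 (Tapbp) after QH-II-066, -0.17 (H2-K1), -0.12 (H2-D1), -0.08 (Tap1), -0.14 (Tapbp), -0.08 (Psmb8) and -0.05 (Psmb9) after both. They were 0.07 (H2-D1) and 0.04 (B2m) for both against 5 Gy, 0.13 (H2-K1), 0.29 (Tap1) and 0.35 (Psmb8) for the interaction in the same fit. When the skin-bearing libraries were left out, the values with another sign were -0.05 (Tap1) and -0.04 (Nlrc5) after 5 Gy, 0.00 (Nlrc5) after QH-II-066, 0.06 (B2m) after both. They were 0.33 (H2-D1) and 0.18 (B2m) for both against 5 Gy, 0.16 (H2-K1), 0.13 (H2-D1), 0.25 (Tap1), 0.42 (Psmb8) and 0.33 (Psmb9) for both against QH-II-066, 0.23 (H2-K1), 0.06 (H2-D1), 0.01 (B2m), 0.29 (Tap1) and 0.64 (Psmb8) for the interaction in the same fit. With the replicate number as a block, the values with another sign were 0.02 (H2-K1) and 0.03 (Tapbp) after 5 Gy, -0.03 (Tapbp) and -0.10 (Psmb9) for the interaction. With no filter, the values with another sign were 0.01 (H2-K1) after 5 Gy, 0.02 (Nlrc5) after QH-II-066, -0.01 (H2-K1) for both against 5 Gy. With RLE scaling, the values with another sign were 0.01 (Nlrc5) after QH-II-066. With DESeq2, the values with another sign were 0.01 (Nlrc5) after QH-II-066. Over the fits that leave out 1 library, the range after 5 Gy was -0.16 to 0.26 for H2-K1, -0.06 to 0.31 for H2-D1, -0.19 to 0.06 for B2m, -0.09 to 0.29 for Tap1, -0.40 to 0.35 for Tap2, -0.25 to 0.35 for Tapbp, -0.32 to 0.37 for Psmb8, -0.54 to 0.21 for Psmb9 and -0.08 to 0.11 for Nlrc5. After QH-II-066 the range was -0.07 to 0.52 for Tapbp, -0.37 to 0.03 for Erap1 and -0.30 to 0.14 for Nlrc5. After both the range was -0.15 to 0.32 for H2-K1, -0.14 to 0.28 for H2-D1, -0.21 to 0.03 for B2m, -0.00 to 0.40 for Tap1, -0.04 to 0.56 for Tapbp, -0.09 to 0.72 for Psmb8 and -0.12 to 0.71 for Psmb9. For both against 5 Gy the range was -0.10 to 0.20 for H2-K1, -0.19 to 0.07 for H2-D1, -0.09 to 0.05 for B2m and -0.04 to 0.25 for Tap1. For both against QH-II-066 the range was -0.26 to 0.01 for Tap1, -0.11 to 0.31 for Tap2, -0.14 to 0.21 for Tapbp and -0.31 to 0.09 for Erap1. For the interaction the range was -0.25 to 0.51 for Tap2, -0.32 to 0.30 for Tapbp, -0.58 to 0.13 for Psmb8 and -0.47 to 0.28 for Psmb9.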
